A study of Homo sapiens with 12 samples.

Results

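Processed pseudogenes are copies of messenger RNAs that were reverse transcribed and inserted into the genome, so they lack the introns of the gene they came from, and they often keep the trace of a poly(A) tail. Ribosomal protein genes, which are among the most highly expressed genes of every dividing cell, have left more such copies in the human genome than most other gene families. A sequencing read from the messenger RNA of a ribosomal protein gene can therefore match several places in the genome, and a count given to a pseudogene can come from its own RNA or from that of its parent gene. The genes described here are those annotated as processed pseudogenes, with a symbol that starts with RPL or RPS and ends with P and a number, and with a mean of at least 0.5 unique molecular identifier (UMI) per cell in both LAST-seq libraries of single HEK293T cells. Of the 1524 annotated pseudogenes with such a symbol, 351 met this threshold and 1173 did not, while 828 had at least a single UMI in either library. The 351 members came from 65 parent genes, among 35621 genes listed in the tables. The largest families were those of RPL21 with 27 members, of RPS2 and RPS3A with 16 each, of RPL36A and RPL17 with 15 each and of RPL7A with 14.

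The members were thus chosen by their LAST-seq UMI counts in HEK293T cells, and those counts and every contrast with them are given as descriptions without a test. Close to the threshold, RPL19P5 had 1.1 and 0.5 UMIs per cell in the 2 libraries, and RPL21P60 and RPL21P79 had 0.5 and 0.6 each. Just outside it, RPL12P6 had 0.5 and 0.4 UMIs per cell, RPL15P2 had 0.4 and 0.8, and RPL17P25 had 0.4 and 0.9.

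HEK293T, a human embryonic kidney line, was profiled without any treatment by 3 assays. LAST-seq and CEL-seq2 count UMIs close to the 3′ end of polyadenylated RNA, with 10 wells pooled per library, and SMART-seq amplifies full-length cDNA in each well and counts sequencing reads. LAST-seq was applied to 2 libraries of single cells, to aliquots of 15 pg total RNA and to single-cell lysate, CEL-seq2 to 2 libraries of single cells and to lysate, and SMART-seq to 6 single cells and 2 libraries of lysate. eHAP1, a haploid human line related to a blood cell leukaemia, was profiled by LAST-seq as 148 wild-type (WT) cells and 153 cells of an SCC4 knockout (KO), each in 2 batches with 80 cells pooled, after live haploid cells in G1 phase had been sorted. SCC4, listed as MAU2, is a partner of the cohesin loader, and the KO was made with Cas9 and grown from single edited cells, so genotype cannot be told apart from other differences of the cultures. The wells of a library were separate cells or aliquots of the same culture, so the spread over wells describes that library.

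The LAST-seq cells held from 87796 to 197212 UMIs, the CEL-seq2 cells from 82783 to 197624, the SMART-seq wells from 785553 to 847764 reads, WT cells from 18022 to 926415 UMIs and KO cells from 44979 to 320432. Of the markers of HEK293T looked for, LIN28B had 6.5 and 10.3 UMIs per cell and NEFL 4.2 and 1.5 in the LAST-seq libraries, NEFM was at 0 and PAX2 was at 0.2 or less. In eHAP1 cells the blood genes PTPRC, SPI1 and GATA1 were at 0 and CD34 at 0.14 UMI per cell or less, so the origin of that line was not visible in these markers. CD34 was higher in the LAST-seq HEK293T libraries, at 0.8 and 1.1. In the WT batches PAX2 had 1.5 and 2.6 UMIs per cell, above HEK293T, LIN28B had 2.7 and 3.7, and NEFL was at 0. The lists thus did not cleanly separate the lines. The 6 SMART-seq single cells each matched a lysate well within sampling noise, and these 6 wells were counted once, as cells. Which label is right for them cannot be told from the counts, so the values given for SMART-seq cells may be those of lysate. In the first SMART-seq lysate library 3 pairs of the 10 wells matched in the same way, which leaves 7 distinct wells. With each pair averaged, its median ratio to the parent was 0.0300 and its share of reads in members 1.66%, against 0.0303 and 1.71% with all 10, the values given below. The LAST-seq libraries of HEK293T cells shared 10 of 10 well barcodes, the CEL-seq2 libraries likewise 10, and WT and KO cells shared 145, so a barcode does not identify a cell across libraries.

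For genes of high count, the batches of eHAP1 agreed more closely than counting noise gives. Among genes with 1000 to under 10000 UMIs over both batches, counting noise alone gives a median chi-square of 0.455 between the batches. The share expected for a batch was the median share over genes with more than 1000 UMIs. It was 0.148 over 2561 genes in WT and 0.103 over 2375 genes in KO, and 0.096 over 89 members in WT and 0.09 over 95 members in KO. At 1000 to under 10000 UMIs the LAST-seq libraries of HEK293T cells gave 4.6 and the CEL-seq2 libraries 36.56 on the same measure. In the first WT batch, 5.34% of all values were 2 and 5.46% were 3, whereas in the first HEK293T library 9.33% were 2 and 6.57% were 3. The authors adjusted eHAP1 counts for batch in their work, and whether the deposited values are those before or after that step is not stated, so the 2 batches cannot be taken as independent replicates. The test of KO against WT below still used them as replicates, as no others exist, and its p-values are limited by this.

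Some members shared long stretches with their parent. The following are the last 60 bases of the sequence that aligns to the coding part of the parent. They are read 5′ to 3′ from the GRCh38 genome. The end of the coding part need not be the 3′ end of the parent's RNA. Whether reads of the 3′ assays fell in this stretch was not tested. Capitals mark the bases that differ between the pseudogene and the parent. In the first set the stretch was the same in both, so a read of 50 bases that lies inside it has no letter that names its source.
RPL39P3, the same as RPL39: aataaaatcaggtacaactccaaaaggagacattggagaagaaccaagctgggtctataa
RPL36AP37, the same as RPL36A: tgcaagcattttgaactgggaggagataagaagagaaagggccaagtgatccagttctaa
RPS23P8, the same as RPS23: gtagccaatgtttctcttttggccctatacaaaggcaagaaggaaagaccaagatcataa
RPL13P12, the same as RPL13: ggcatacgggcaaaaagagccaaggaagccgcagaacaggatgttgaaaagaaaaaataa
RPL10P3, the same as RPL10: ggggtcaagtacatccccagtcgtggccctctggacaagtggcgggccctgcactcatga

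The stretch of RPL39P3 lies at chr6:73373108-73373167 on the minus strand, in an intron of OOEP, and that of RPL36AP37 at chr11:16974693-16974752 on the minus strand, in an intron of PLEKHA7. RPS23P8 has it at chrX:70963234-70963293 on the plus strand and RPL13P12 at chr17:17383377-17383436 on the minus strand, both between genes. That of RPL10P3 lies at chr9:117180702-117180761 on the minus strand, where the pseudogene overlaps ASTN2 and the small nucleolar RNA gene SNORA70C. In RPL39 and RPL36A the stretch joins 2 exons, exons 2 and 3 of RPL39 and exons 4 and 5 of RPL36A, so in the genome only the pseudogenes hold it without a gap. In RPS23, RPL13 and RPL10 it lies within a single exon.

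In a second set, single bases differed.
RPS15P4: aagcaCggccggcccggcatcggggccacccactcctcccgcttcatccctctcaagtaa
RPS15: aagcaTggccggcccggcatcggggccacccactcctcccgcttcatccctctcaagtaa
RPL26P6: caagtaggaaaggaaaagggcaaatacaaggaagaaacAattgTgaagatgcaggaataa
RPL26: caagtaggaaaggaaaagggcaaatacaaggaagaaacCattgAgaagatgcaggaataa
RPS7P15: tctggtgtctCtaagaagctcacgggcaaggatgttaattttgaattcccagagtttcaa
RPS7: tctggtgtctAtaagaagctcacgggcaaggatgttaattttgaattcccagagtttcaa

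RPS15P4 lies at chr2:171517270-171517329 on the minus strand and differed by 1 base, RPL26P6 at chr10:73422259-73422318 on the minus strand and differed by 2, and RPS7P15 at chr4:4507602-4507661 on the plus strand and differed by 1. The parents RPS15 and RPL26 hold the stretch in exon 4 and RPS7 in exon 7.

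The members took 3.39% and 3.56% of all UMIs in the LAST-seq libraries of HEK293T cells, with single cells between 2.729% and 3.879%. Their share was 3.39% in 15 pg RNA, 5.26% in LAST-seq lysate, 3.30% and 5.00% in CEL-seq2 cells and 7.65% in CEL-seq2 lysate. In SMART-seq it was 2.25% of the reads in cells and 1.71% and 1.70% in lysate, and in eHAP1 it was 2.60% and 2.59% in the WT batches and 3.08% and 3.06% in the KO batches. The parents took 10.3% and 10.5% in LAST-seq cells, so 24.7% and 25.4% of the joint UMIs of members and parents were counted under a pseudogene. The corresponding joint share was 31.8% and 34.7% in CEL-seq2 cells, 41.4% in CEL-seq2 lysate, and 25.6%, 24.9% and 25.1% in the SMART-seq libraries. Few members dropped out in the other assays, with 16, 4 and 6 at 0 in the CEL-seq2 libraries, 15, 12 and 7 at 0 in the SMART-seq libraries and 1 at 0 in each WT batch.

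Most members were rare beside their parent and a small number were not. In the first LAST-seq library the median ratio of the UMIs of a member to those of its parent was 0.0296, with quartiles of 0.0104 and 0.091, and in the second it was 0.0304. There, 11 and 13 members had more UMIs than their parent, 73 and 75 lay between 0.1 of the parent's UMIs and all of them, and 267 and 263 lay under 0.1. The median was 0.0158 and 0.0233 in CEL-seq2 cells, between 0.0303 and 0.0315 in the 3 SMART-seq libraries, 0.0438 and 0.0347 in the WT batches and 0.0363 and 0.0367 in the KO batches. CEL-seq2 spread the members more widely, with 147 and 126 members under 0.01 of the parent against 87 and 78 in LAST-seq, and 14 and 12 above the parent. SMART-seq had 4, 3 and 3 members above the parent, and 106, 105 and 99 under 0.01 of it, also more than LAST-seq of cells. Ranked by this ratio, the members kept their order best within LAST-seq, with a Spearman correlation over the 351 members of 0.971 between the libraries of cells, 0.914 and 0.909 with the WT batches, 0.741 and 0.778 with CEL-seq2 cells and 0.618 with SMART-seq cells. Members of a family share a parent and thereby a denominator, so these correlations describe the tables and have no p-value.

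**Figure D1:**
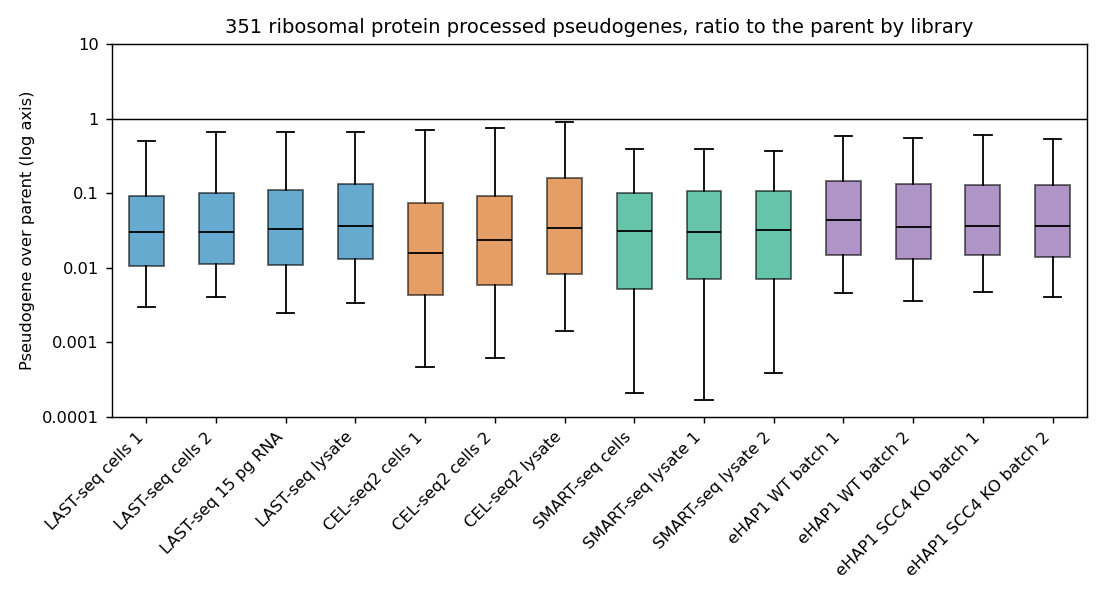
Ratio of the UMIs or reads of each of the 351 pseudogenes to those of its parent in each library, on a log axis, with boxes from the first to the third quartile, a line at the median and whiskers from the 5th to the 95th percentile. The medians lie between 0.0158 and 0.0438, the boxes of CEL-seq2 and SMART-seq reach lower than those of LAST-seq, and few members lie above the line at 1.

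Summed over all members of a family, the pseudogenes reached a median of 0.262 and 0.256 of their parent by LAST-seq. By CEL-seq2 of cells this was 0.180 and 0.320, in SMART-seq cells 0.333 and in WT 0.280 and 0.264. In 14 of the 65 families, in either LAST-seq library, the members together had more UMIs than the parent, whereas in SMART-seq this held for 5, 5 and 6 families. The RPL10 members reached 4.56 and 4.95 times their parent in LAST-seq, 5.46 and 2.65 times in CEL-seq2, but 0.539 in SMART-seq cells. RPL21 members, the largest family, reached 2.34 and 2.27 times the parent in LAST-seq, 2.52 and 2.50 times in CEL-seq2, 0.882 in SMART-seq cells and 4.6 in the first WT batch. RPSA members, whose parent encodes a small-subunit protein also known as a laminin receptor, reached 2.34 and 2.19 in LAST-seq, 1.84 and 1.99 in CEL-seq2 and 0.810 in SMART-seq cells. RPS3A went the other way, with 1.42 and 1.5 in LAST-seq, 0.592 and 0.896 in CEL-seq2 and 3.35 in SMART-seq cells. The lowest families were RPL11, at 0.0012 and 0.0015 in LAST-seq, and RPS16, at 0.0022 and 0.0040.

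The RPL17 family stood apart because of its parent. RPL17, a protein near the exit tunnel of the large subunit, had a mean of 5.1 and 4.3 UMIs per cell by LAST-seq, and by CEL-seq2 2.7 and 3.4. Of its annotated exon bases, 96.9% also belong to the read-through gene RPL17-C18orf32 on the same strand. How the authors counted reads that fall in exons of more than 1 gene was not given in the sources used here, so ratios to this parent are uncertain. RPL17P39 had 45 and 49.9 UMIs per cell by LAST-seq, 8.8 and 11.6 times the parent. By CEL-seq2 it had 100.5 and 124.8, which is 37.2 and 36.7 times the parent. RPL17P18 had 39.8 and 37.1 UMIs per cell by LAST-seq, and by CEL-seq2 91.4 and 93.8. The SMART-seq cells differed, where RPL17 had 48.2 reads per cell, RPL17P39 had 86.8 and RPL17P18 33.3. RPS10, RPL26 and RPL36A also share exon bases with another gene of the same strand, over 84.0%, 65.3% and 43.8% of their length.

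The 10 members with the most LAST-seq UMIs are described one by one. RPS15P4 had the highest level, with 235 to 440 UMIs per cell and a median of 349 in the first LAST-seq library and 284 to 489 with a median of 411 in the second. Its parent RPS15, which encodes a protein of the small-subunit head, had 196 to 438 and 288 to 497, so the ranges overlapped in both libraries. A member and its parent were counted in the same cells. The ranges given here and below do not show which was higher within a cell where they overlap. The ratio was 1.05 and 1.02 in LAST-seq, 1.32 and 1.05 in CEL-seq2, 0.280 in SMART-seq cells and 0.811 in WT.

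RPS23P8 had 131 to 383 UMIs per cell in the first LAST-seq library and 154 to 365 in the second. RPS23, a protein of the decoding centre, had 64 to 229 and 72 to 197, a smaller sum in both with overlapping ranges. In CEL-seq2 the order turned, with 39 to 118 and 36 to 215 UMIs for the pseudogene and 87 to 265 and 77 to 355 for RPS23. The ratio was thus 1.77 and 1.83 in LAST-seq and 2.41 in WT but 0.401 and 0.604 in CEL-seq2, and 0.933 in SMART-seq cells.

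RPL3P4 had 85 to 381 and 108 to 392 UMIs per cell in LAST-seq, where RPL3, which lies near the peptidyl transferase centre, had 62 to 279 and 81 to 216. It stayed above the parent in CEL-seq2, at ratios of 2.00 and 1.45. In SMART-seq cells it had 153 to 219 reads against 1190 to 1727 of RPL3, a ratio of 0.128, so the ranges did not overlap there.

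RPL13P12 had 90 to 310 and 135 to 329 UMIs per cell in LAST-seq, against 39 to 117 and 48 to 121 of RPL13. In CEL-seq2 cells it had 243 to 624 and 192 to 635 against 97 to 199 and 84 to 338. The ratios were 2.54 and 2.82 in LAST-seq, 2.70 and 1.85 in CEL-seq2 and 2.57 in WT, and 0.435 in SMART-seq cells, where RPL13 had 1273 to 1896 reads.

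Among these 10 members, RPL10P3 showed the widest range between assays. It had 154 to 256 and 155 to 226 UMIs per cell in LAST-seq, above the ranges of RPL10, 27 to 86 and 18 to 83. RPL10 encodes a protein that joins the large subunit late in its assembly. In CEL-seq2 cells the pseudogene had 73 to 283 and 34 to 318 UMIs and RPL10 32 to 76 and 27 to 241. In SMART-seq cells RPL10P3 had 29 to 41 reads and RPL10 619 to 891, in reversed order without overlap. The ratio went from 3.56 and 3.92 in LAST-seq over 3.59 and 1.30 in CEL-seq2 to 0.047 in SMART-seq cells.

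RPL26P6 was likewise lowest in SMART-seq, but it was higher beside its parent in CEL-seq2 than in LAST-seq. It had 70 to 197 and 107 to 199 UMIs per cell in LAST-seq, where RPL26 had 128 to 410 and 182 to 397. The ratio was 0.486 and 0.517 in LAST-seq, 0.639 and 0.711 in CEL-seq2 and 0.086 in SMART-seq cells, which had 14 to 35 reads of RPL26P6 and 211 to 376 of RPL26.

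RPL39P3, a full copy of the coding part of RPL39, a small protein of the exit tunnel, had 92 to 292 and 159 to 345 UMIs per cell in LAST-seq against 435 to 876 and 561 to 998 of RPL39. In the first CEL-seq2 library it had 2 to 11 UMIs and in the second 3 to 62, so the 2 libraries differed in their medians, 4.5 and 43. The ratio was 0.277 and 0.284 in LAST-seq, 0.030 and 0.218 in CEL-seq2, 0.250 in SMART-seq cells and 0.258 in WT.

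RPL36AP37, a copy without a single difference over its length, had 97 to 279 and 153 to 305 UMIs per cell in LAST-seq, below RPL36A at medians of 261.5 and 350, with overlap. In CEL-seq2 it was above the parent, at ratios of 2.62 and 1.70 against 0.732 and 0.744 in LAST-seq, and in SMART-seq cells it had 320 to 393 reads against 147 to 237. RPS3AP26 had a ratio of 0.741 and 0.743 in LAST-seq, 0.253 and 0.380 in CEL-seq2 and 0.939 in SMART-seq cells. RPL7P9 had a ratio of 0.330 and 0.349 in LAST-seq, 0.117 and 0.159 in CEL-seq2, 0.227 in SMART-seq cells and 0.584 in WT.

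**Figure D2:**
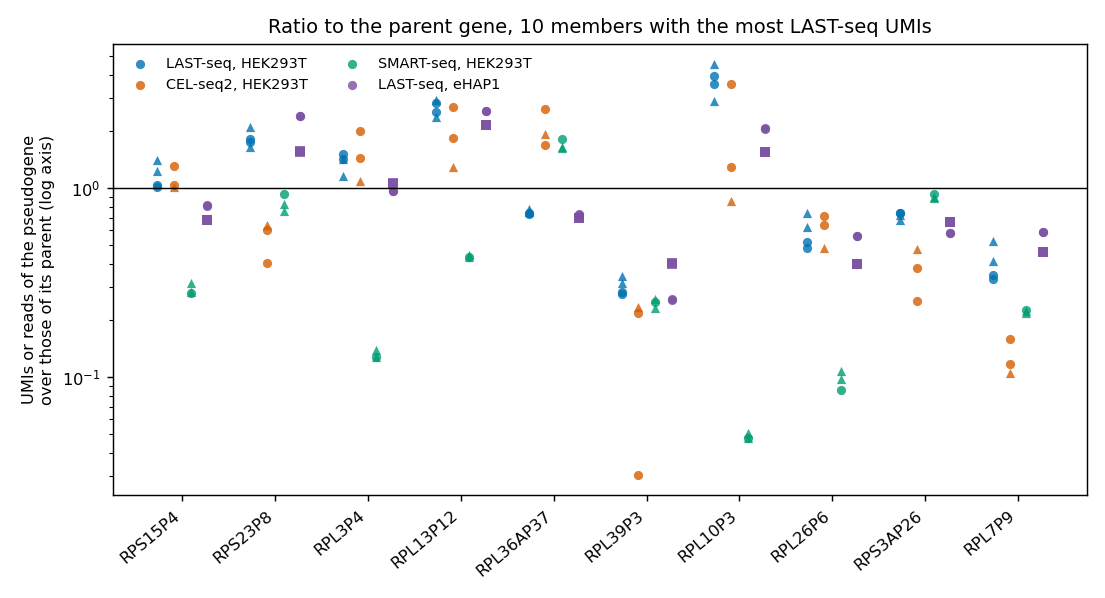
Ratio to the parent gene of the 10 members with the most LAST-seq UMIs, on a log axis, with a point per library (circles for cells, triangles for lysate or 15 pg RNA, squares for SCC4 KO) and colours for the assay or cell line. RPL10P3, RPL3P4, RPL26P6 and RPS15P4 are lowest in SMART-seq, RPS23P8 is lowest in CEL-seq2, and RPL36AP37 is lowest in LAST-seq.

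Of the 351 members, 12 had more UMIs than their parent in both CEL-seq2 libraries of cells, 9 in WT eHAP1 and 6 in both. RPL17P39 and RPL17P6 were the 2 members above their parent in every assay, and both have RPL17 as the parent. RPL41P2 had 26 to 93 and 36 to 101 UMIs per cell in the LAST-seq libraries, while its parent RPL41, which encodes a peptide of few residues, had 67 to 201 in the first and 32 to 54 in the second. Its ratio was therefore 0.417 and 1.44 in libraries of the same assay, with the change on the side of the parent, and 2.97 and 3.15 in CEL-seq2.

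As a description of the reference sequences, the members were closer to their parents than the pseudogenes under the threshold. The median identity over the aligned part was 94.7% for the members and 86.6% for the 1173 others. Of the windows of 50 bases in a member, the length of the cDNA read, a median of 7.52% occurred unchanged in a transcript of the parent, and 0% among the others. A median of 82.8% of the windows of a member occurred once in the genome and not in the parent, against 100% for the others. At least 3 mismatches to the parent were found in 47.8% of the windows of a member and in 97.2% of those of the others, as medians. No window was shared with the parent for 51 of the 351 members and for 942 of the 1173 others. Length was similar, with medians of 488 and 463 bases, and the longest run of A around the 3′ end had a median of 6 and 5 bases. Of the members, 157 lay between genes, 106 overlapped a gene of the opposite strand only, 81 lay in an intron of a gene of the same strand and 7 overlapped an exon of one. Of the others, these numbers were 527, 384, 239 and 23.

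All windows were shared with the parent in 5 members, RPL36AP37, RPL39P3, RPL21P16, RPS28P7 and RPL41P5. Their levels differed widely although none holds a letter of its own. RPL39P3 had a median of 187 UMIs per cell in the first LAST-seq library, and RPL21P16, whose windows occur up to 22 times in the genome, had 1 to 9 UMIs with a median of 3.5. In CEL-seq2 RPL21P16 had 24 to 104 and 27 to 132 UMIs per cell, above every LAST-seq cell, and in SMART-seq cells it had 2 to 8 reads.

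The ratio to the parent was higher in members with more windows in common, apart from the 5 that share all. In the first LAST-seq library the median ratio was 0.0132 for the 51 members with no shared window, 0.0156 for 143 members with less than 10%, 0.057 for 112 with 10% to less than 50% and 0.208 for 40 with 50% or more but not all. The same classes had 0.0058, 0.0091, 0.037 and 0.116 in the first CEL-seq2 library, 0.00069, 0.0185, 0.089 and 0.228 in the first SMART-seq lysate library and 0.0195, 0.0217, 0.085 and 0.255 in the first WT batch. The 5 members with all windows shared had 0.085, 0.031, 0.055 and 0.123. The Spearman correlation of the share of windows with the ratio was 0.511 in LAST-seq, 0.459 in CEL-seq2, 0.533 in WT and 0.696 in SMART-seq cells over the 351 members, and it describes the tables only.

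The 40 members with 50% to under 100% of their windows in the parent held 36.9% of the member UMIs of the first LAST-seq library, and the 5 with all of them 7.95%. Members without any shared window held 3.56% there, 3.47% in the first CEL-seq2 library and 1.38% of the member reads in the first SMART-seq lysate library. These members have no place where an error-free read of 50 bases from an annotated parent transcript matches in full. Reads that trimming left shorter, and reads with errors, are not covered by this. Over all members, a median of 22.64% of windows of 30 bases occurred in the parent, against 7.52% at 50 bases. Whether reads of a parent were counted under these members was not tested. RPL10P3 and RPL26P6 were high, with 7.64% and 3.6% of their windows shared. Counted back from the annotated 3′ end of the pseudogene, they matched a parent transcript for 5 and 16 bases. For RPL10P3 this end lies past the coding stretch printed above. The 60 coding bases of RPL10P3 were nevertheless the same as in RPL10. RPL3P4, RPS23P8, RPL13P12 and RPS15P4 matched from their 3′ end for 327, 159, 132 and 54 bases. This match was looked at after the levels had been seen. The 80 members with at least 50 identical bases at that end held 56.1% and 55.9% of the member UMIs by LAST-seq, and by CEL-seq2 58.0% and 56.1%. Their median ratio was 0.0841 and 0.0874 in LAST-seq against 0.0215 and 0.0239 for the 271 other members.

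**Figure D3:**
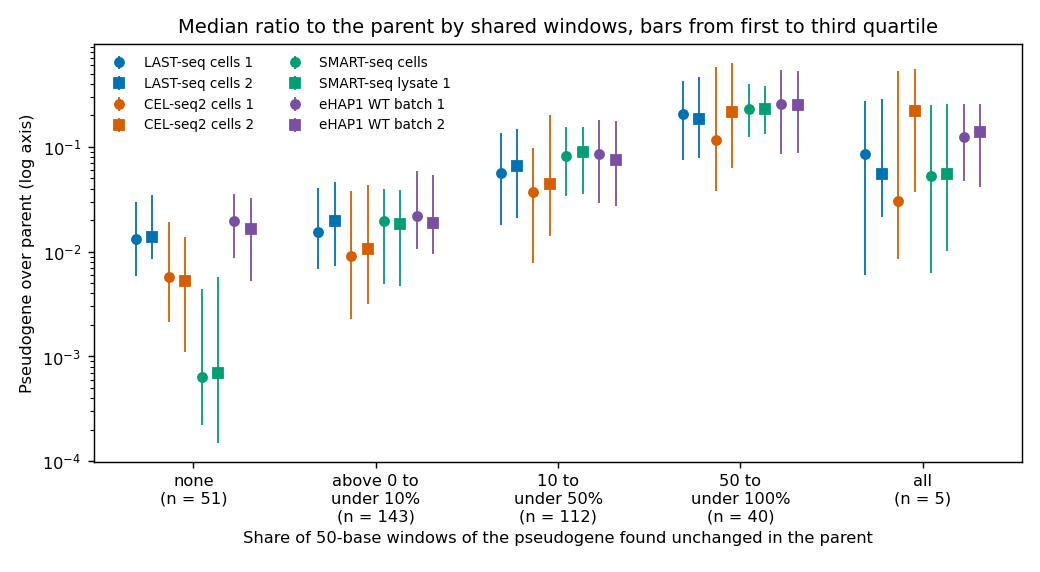
Median ratio to the parent by the share of 50-base windows that a pseudogene has in common with its parent, on a log axis, with bars from the first to the third quartile and a point per library. From the class with none (n = 51) to the class with 50% to under 100% (n = 40) the median goes from 0.0132 to 0.208 in the first LAST-seq library and from 0.00069 to 0.228 in the first SMART-seq lysate library.

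The reads behind each UMI, which did not enter the choice of the members, were fewer for the members than for their parents. In the first LAST-seq library the median was 2.96 reads per UMI over the members, 4.53 over the parents, 4.23 over protein-coding genes and 3.0 over other processed pseudogenes. The second LAST-seq library had 2.67, 4.16, 4.03 and 2.63, and the first CEL-seq2 library, the one with a table of reads, 1.02, 1.74, 2.40 and 1.17. A member had fewer reads per UMI than its parent in 289 of 351 cases in the first LAST-seq library (82.3%), in 303 of 351 in the second (86.3%) and in 322 of 335 detected members in CEL-seq2 (96.1%), and the median of that relative value was 0.649, 0.668 and 0.671. The level of a gene moved with this measure, so genes of like level were set side by side. At 5 to 50 UMIs over the first LAST-seq library, members had a median of 2.61 and protein-coding genes 3.95, at 51 to 500 UMIs 3.18 and 4.56, and above 500 UMIs 3.78 and 4.79. The second library had 2.41 and 3.77, 2.9 and 4.32, and 3.58 and 4.56 in these classes.

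Members differed among themselves in the reads per UMI. The 45 with 50% or more of their windows in the parent had a median of 3.21 and 3.09 by LAST-seq, and the 51 without a shared window had 1.96 and 2.2. RPL26P6 had 2.71 and 2.45 reads per UMI where RPL26 had 8.21 and 7.41, the lowest relative value of the members with at least 100 UMIs. It was followed by RPS27AP5, with 3.28 and 3.6 against 9.28 and 9.51 of RPS27A, RPL6P20 with 2.04 and 2.18 against 5.27 and 4.93, RPL10P3 with 1.84 and 1.74 against 4.70 and 3.70, and RPL9P7 with 3.52 and 3.06 against 6.83 and 7.31. At the other end RPL41P2 had 3.98 and 3.9 against 2.85 and 2.36 of RPL41, RPL32P16 had 5.01 and 4.69 against 3.39 and 3.02, and RPL36AP19, RPL36AP37 and RPL3P4 were also above their parents, by 1.42, 1.31 and 1.28 times as the mean of both libraries. RPS23P8 and RPL13P12 had nearly the values of their parents, at 1.06 and 1.05 times. In CEL-seq2 RPL10P3 had 2.00 against 1.12 reads per UMI of RPL10, the opposite order.

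**Figure D4:**
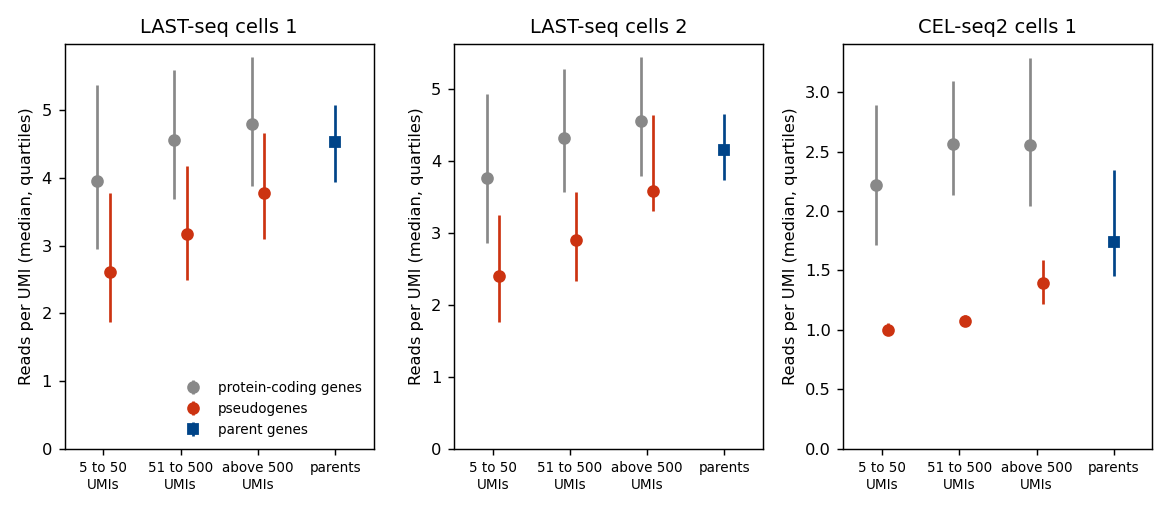
Sequencing reads per UMI in 3 libraries, as medians with quartiles, for members and protein-coding genes in 3 classes of UMIs per library and for the parents. Members lie below protein-coding genes in each class, with 2.61 against 3.95, 3.18 against 4.56 and 3.78 against 4.79 in the first LAST-seq library.

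Within single cells, the correlation of members with their parent was higher than that with other ribosomal protein genes. Over 148 WT eHAP1 cells scaled to 10000 UMIs, the median Spearman correlation of a member with its parent was 0.156 over 350 members, with quartiles of 0.092 and 0.232, and with other ribosomal protein genes it was 0.020. The parent stood above the median of the 79 ribosomal protein genes for 329 members and first among them for 98. Among the 37 members with at least 20 UMIs per cell, the medians were 0.290 and 0.047, and the parent was first for 26. RPS2P7 had the highest value, 0.500 with RPS2, followed by RPL7P9 with 0.498, RPS13P2 with 0.444, RPL10P9 with 0.440 and RPS3AP26 with 0.433. Without the scaling the medians were 0.514 and 0.484, as all genes then follow the depth of the cell. Cells of a batch were pooled for amplification and share a depth effect, and no p-value is given.

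A second measure, added after the data had been seen, was the spread over cells of the share that a member took of the sum of itself and its parent, as chi-square over its degrees of freedom, where counting noise gives 1. Over members and parents with at least 5 UMIs per cell, the median was 0.976 and 0.952 in the LAST-seq libraries, against 1.26 and 1.22 when other ribosomal protein genes took the parent's place. In CEL-seq2 cells it was 1.60 and 1.45 against 2.33 and 2.56, and in WT 0.914 and 0.989 against 1.14 and 1.21. It was lower with the parent for 111 of 141 and 116 of 148 members in LAST-seq and for 96 of 110 and 115 of 146 in CEL-seq2. By this measure RPL3P4 had 0.660 and 2.44 in LAST-seq, and RPS23P8 had 0.609 and 0.875. RPL10P3 had 2.34 and 4.48, above counting noise in both, and in the second library above the 3.13 it had with other ribosomal protein genes. In a LAST-seq library the median member thus varied against its parent about as much as counting gives, while RPL10P3 varied more in both libraries and RPL3P4 in the second.

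Between assays, levels were compared as UMIs or reads scaled to a total of 1000000 (CPM), with a difference called where it passed 2-fold in the same direction in every pair of libraries. The background was the 10343 genes with at least 0.5 UMI per cell in both LAST-seq libraries of HEK293T cells. They are named all genes in this paragraph and the next. CEL-seq2 cells against LAST-seq cells had 37 members higher, 10.5% of 351, where 11.2% of all genes were called higher. Lower were 77 members, 21.9%, where 6.38% of all genes were called lower. The rule used the LAST-seq side of this contrast. The median log2 difference was -0.63 for the members, -0.32 for the parents and 0.16 for all genes. When libraries were scaled by TMM, which put the median of all genes at -0.16, 23 members were higher and 92 lower, so that the higher ones were 20% of the calls in place of 32.5%, against 7.34% higher and 10.2% lower over all genes. Without the first CEL-seq2 library 86 members were higher, and without the second 163 were lower. RPL5P6 had the highest ratio of CEL-seq2 to LAST-seq, 43.4, from 1.9 and 2.4 UMIs per cell in LAST-seq to 81.8 and 108.1 in CEL-seq2, and 16.8 reads in SMART-seq cells. RPL21P16 followed with 24.8, RPL5P4 with 13.1, RPL21P120 with 10.1 and RPS7P4 with 9.50. RPL5P4 had 7.0 and 5.7 UMIs per cell in LAST-seq, 92.6 and 79.0 in CEL-seq2 and 139.3 reads in SMART-seq cells. At the low end RPL7P20 was at 0 in CEL-seq2 cells with 0.5 and 2.0 UMIs per cell in LAST-seq. RPS29P3 had 4.5 and 5.9 UMIs per cell by LAST-seq but 0.0 and 0.1 by CEL-seq2, and RPS3AP25 had 18.1 and 19.7 against 0.5 and 0.4, with 1.5 reads in SMART-seq cells.

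SMART-seq, with its libraries of lysate included, was set against LAST-seq cells, so the input differed as well as the assay. In this contrast 40 members were higher, 11.4%, where 14.0% of all genes were called, and 140 lower, 39.9%, where 16.3% of all genes were called. Of the 65 parents 1 was higher and 19 were lower. SMART-seq values are reads over the full length, so a longer transcript takes more of them, and the levels of a short pseudogene and a longer gene are not on 1 scale. WT eHAP1 against HEK293T cells, both by LAST-seq, had 23 members higher, 6.55% where 6.47% of all genes were called, and 47 lower, 13.4% where 15.2% were called. The shares of members in both directions were thus near those of all genes, and the median log2 difference was -0.30 for the members, -0.34 for all genes and -0.70 for the parents. RPS29P3 went from 4.5 and 5.9 UMIs per HEK293T cell to 15.3 and 24.6 per WT eHAP1 cell.

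The comparison of SCC4 KO with WT eHAP1 cells was independent of the rule, which used HEK293T cells. The targeted gene MAU2 had 326 and 507 UMIs in the WT batches and 59 and 169 in the KO batches, that is 44.3 and 41.2 against 9.18 and 14.5 CPM. UMIs were summed over the cells of each batch and tested with the quasi-likelihood test of edgeR, at a Benjamini-Hochberg false discovery rate of 0.05 over 15057 genes. As the batches agreed more closely than counting noise for genes of high count, the p-values of such genes are too small. Of the 349 members tested, 94 rose, 26.9% where 13.3% of all genes rose, and 39 fell, 11.2% where 16.2% of all genes fell. The median log2 difference of the members was 0.11 and that of all genes -0.01. Among the 79 ribosomal protein genes 39 rose and 5 fell, 49.4% and 6.33%, with a median of 0.21. Past 2-fold in both batches were 19 members in the direction of KO, 5.44% where 6.1% of all genes were, and 1 in the direction of WT, 0.287% where 4.67% were, so most calls were of small size. Without the second WT batch 15 members fell and without the second KO batch 22, and the ribosomal protein genes that rose were 14 without the first KO batch, while 24 and 11 fell without the first or the second WT batch.

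Most members had a parent that was higher in KO, whichever way they went themselves. Over all 349 members tested, the parent had a positive log2 difference for 270 (77.4%), had risen for 186 (53.3%) and had fallen for 13 (3.7%). Of the 94 members that rose, from 38 parents, the parent differed in the same direction for 82 (87.2%), had itself risen for 65 (69.1%) and had fallen for 6. Of the 39 that fell, from 22 parents, the parent differed in the same direction for 11 and in the opposite one for 28 (71.8%), had fallen for none and had risen for 17 (43.6%). These shares were not tested against each other. By family, 10 of the 16 RPS3A members rose and none fell, at a log2 difference of 0.23 for RPS3A, which also rose. In the RPL21 family 1 of 25 tested members rose and 7 fell, whereas RPL21 rose by 0.52. Of the 14 RPL7A members 4 fell and none rose, and of the 9 RPL13A members 5 rose and none fell although RPL13A fell by 0.41 on the log2 scale.

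RPL3P4 had 563 and 579 CPM in the WT batches and 1438 and 1449 in the KO batches, with no overlap. It rose by 1.27 ± 0.07 (log2, SE; edgeR adjusted p = 3.81e-06, n = 2 batches each), beside a rise of RPL3 of 1.14 (adjusted p = 5.915e-06). RPL9P7 went from 199 and 203 CPM to 457 and 459, a rise of 1.12 on the log2 scale (edgeR adjusted p = 2.909e-06), where RPL9 rose by 0.28. RPL14P1 went from 98.99 and 97.1 CPM to 218 and 220, a rise of 1.09, where RPL14 rose by 0.58.

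The largest difference, of RPL5P29, rested on few UMIs, with 0.272 and 0.732 CPM in WT and 3.73 and 5.31 in KO and a log2 difference of 3.0 ± 0.79 (edgeR adjusted p = 0.0174). RPS24P17 rose by 1.81 ± 0.22, from 6.79 and 6.997 to 25.98 and 24.9 CPM, where RPS24, a protein of the small subunit, rose by 0.61. RPL22P2, RPL12P19, RPL5P34, RPL21P67 and RPL29P11 rose by 1.77, 1.58, 1.54, 1.42 and 1.41, and RPL23AP2 and RPS3AP43 by 1.33 and 1.29. RPL21P125 fell by 1.38 on the log2 scale, from 12.5 and 10.7 to 5.13 and 4.2 CPM, against the direction of RPL21.

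Of the 10 members with the most LAST-seq UMIs, RPL3P4, RPL39P3 and RPS3AP26 rose, the latter 2 by 0.45 and 0.42 on the log2 scale, and RPL7P9 fell by 0.28. RPS15P4 differed by 0.01 (edgeR adjusted p = 0.931), RPS23P8 by -0.13, RPL13P12 by -0.02, RPL36AP37 and RPL10P3 by 0.07 and RPL26P6 by -0.02, none of them past the threshold.

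**Figure D5:**
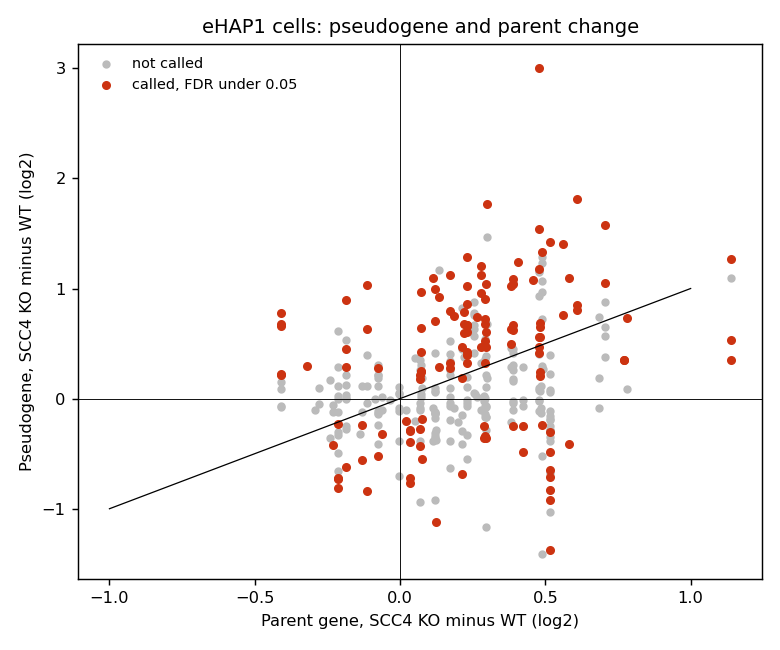
Log2 difference of SCC4 KO minus WT for each tested pseudogene against that of its parent, with members that passed the false discovery rate of 0.05 in colour and a diagonal where both are equal. The parent is higher in KO for 270 of all 349 members, for 82 of the 94 that rose and for 28 of the 39 that fell.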

How the data were processed

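The authors deposited whole-number counts of UMIs, and for 3 libraries and all SMART-seq wells counts of reads, in the exons of each gene and well. The HEK293T values carry no normalization, whereas whether the eHAP1 values had been adjusted for batch is not given in the sources used here. Reads were demultiplexed with bcl2fastq 2.20 per the labels, and trimmed with cutadapt, aligned to GRCh38 with GENCODE genes and spike-in sequences and counted with zUMIs by the methods of the study, with HEK293T libraries subsampled to equal depth and UMIs collapsed by identity. How reads that match several places were treated was not given in the sources used here. No library column of another series was present.

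The labels gave the assay, the input and the cell line by which wells were grouped. Parent genes were taken from the symbol before P and the number. Sequences and positions came from GRCh38 with GENCODE release 44, a later release than the authors', and a 50-base window counted as shared when it occurred unchanged in any transcript of the parent. Ratios used sums over the wells of a library. SCC4 KO and WT were compared with edgeR 4.0.16 (TMM, filterByExpr, quasi-likelihood test) in R 4.3.3 on sums per batch, with DESeq2 1.42.0 as an alternative. On simulated counts of 14518 genes for this comparison edgeR recovered 47 of 98 genes changed 2-fold and 72 of 96 changed 4-fold, with 9 false calls. The simulated batches were independent and varied at least as much as counting noise, unlike the real ones at high counts. These numbers therefore do not give the false calls or the recovery of the real test. BASiCS, used by the study, was not run. The same batch number paired no samples beyond their number, with a correlation of deviations of 0.036, and only 2 pairs exist. The p-values rest on 2 batches of the same cultures per genotype and on a dispersion partly shared over genes. As the counts may have been adjusted for batch, these p-values need not measure the spread between such batches.

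Genes were named by rule: the 10 highest members in LAST-seq, members above their parent in CEL-seq2 or eHAP1, the 5 members with the most and the 5 with the fewest shared windows (51 members tied at none and were ordered by level, and of the 5 only RPS7P15 is shown, by its sequence), the 5 highest and 5 lowest in reads per UMI relative to the parent, the 10 largest calls in KO, the 5 highest and 5 lowest ratios of CEL-seq2 to LAST-seq and the neighbours of the threshold. Families, and members named for their correlation or their rise beside a parent, were chosen after their values were seen. The members and lists were chosen with earlier results of these data known. Shares and ratios of counts carry no interval, and PCR reads are not independent molecules. Calculations used Python 3.11.15, NumPy 2.4.6, pandas 2.3.3, SciPy 1.17.1 and Biopython 1.88.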

Additional observations from a re-analysis of the deposited data

How the results depend on the processing

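The median ratio to the parent of 0.0300 in LAST-seq, 0.0195 in CEL-seq2, 0.0308 in SMART-seq and 0.0392 in WT eHAP1 depended most on what was averaged. With 1 value per parent, its members summed, it was 0.2589, 0.2501, 0.3398 and 0.272, and with the threshold for members at 1 UMI it was 0.0412, 0.0284, 0.0408 and 0.0532. Adding 0.5 to both counts moved it by less than the spread. So did averaging the matching wells of the first SMART-seq lysate library, which was chosen after seeing the data. With a library or batch left out it was 0.0296 or 0.0304 in LAST-seq and 0.0158 or 0.0233 in CEL-seq2. In SMART-seq it was 0.0304 to 0.0311 and in WT eHAP1 0.0347 or 0.0438. As the ratio is a mean over libraries, leaving out any of them cannot move it past their spread, so this does not measure robustness. The reads per UMI relative to the parent went from 0.662 to 0.600 with the median over cells and to 0.769 among members of at least 100 UMIs. The windows shared with the parent, 7.52% at 50 bases, were 22.64% at 30 bases, 13.1% at 40 bases and 8.37% in the last 300 bases. The correlation with the parent of 0.156 was 0.514 with raw UMIs, and 0.162 to 0.170 without either batch.

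Against LAST-seq, 37 members were higher in CEL-seq2, 23 with TMM scaling and 42 to 86 without any of the libraries in turn, and 77 were lower, 88 to 163 without any of them. With fewer libraries a call needs fewer pairs. In KO against WT, DESeq2 called 89 members higher and 26 lower, and 2-fold in both batches 19 and 1. Leaving out a batch, which leaves 1 sum in a group that is assumed to vary like the other, gave 64 to 95 higher and 15 to 38 lower, with 15 lower without the second WT batch and 22 without the second KO batch. With the batch number as a replicate block, edgeR called 94 higher and 40 lower. The threshold for members in the second LAST-seq library alone gave 425 members, in the first alone 375 and at 1 UMI in both 291. Of all values recomputed under an alternative, 45 stayed within the limits used for their measure and 23 are given here. These limits were wide for counts of calls, where the change from 39 to 26 members lower with DESeq2 lay within them. The 45 include the ratios with a library or batch left out, which could not move past the spread.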

Other observations

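Some ribosomal protein processed pseudogenes under the threshold were high outside LAST-seq of HEK293T cells. They were chosen after their values were seen. RPL21P84 was at 0 and 8.5 UMIs per cell in the LAST-seq libraries of HEK293T cells, while it had 53.0 and 54.6 in the CEL-seq2 libraries of cells and 0 in CEL-seq2 lysate. In eHAP1 it had 15.4 and 24.8 UMIs per cell in the WT batches and 6.2 and 11.0 in the KO batches. Of its 50-base windows 2.09% occur in RPL21, and its windows occur up to 19 times in the genome. RPL5P3 had 0.6 and 0.2 UMIs per cell in LAST-seq, 15.5 and 10.4 in CEL-seq2 and 39.0, 31.5 and 26.4 reads per well in SMART-seq. RPL29P33 had 0 and 0.1 in LAST-seq and 87.2, 58.9 and 48.9 reads per well in SMART-seq. RPL35P2 had 0.2 and 0.1 in LAST-seq and 52.0, 49.7 and 41.9 in SMART-seq, and RPL7P11 0.3 and 0.3 in LAST-seq and 51.3, 28.9 and 29.2 in SMART-seq. In the SMART-seq libraries 193, 178 and 173 pseudogenes under the threshold had at least 0.5 read per well. What sets these assays apart at these loci was not tested.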
